A study of Caenorhabditis elegans with 9 samples.

Results

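The 9 genes described here encode the enzymes that break down propionate in Caenorhabditis elegans: 5 of a propionate shunt (acdh-1, ech-6, hach-1, hphd-1 and alh-8) and 4 of the canonical route (pcca-1, pccb-1, mce-1 and mmcm-1). They were chosen by name among the 45461 entries of the deposited count table, of which 23145 held a count. In the table hach-1 stands under its identifier F09F7.4 and hphd-1 under Y38F1A.6, and the other 7 under their symbols. All 9 passed the filter on low counts and were among the 13985 genes tested.

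RNA was sequenced from whole adult worms collected 48 hours after the L4 larval stage, in 9 libraries. The 3 nicotinic acid libraries came from worms on agar with this vitamin, a precursor of NAD, whose dose reads 1 mM in the sample source and 1 nM in the treatment protocol. The 3 MNA libraries came from worms on agar with 1 µM 1-methylnicotinamide, a methylated form of nicotinamide. The 3 control libraries came from worms on agar supplemented with water, the solvent. All plates shared a batch of agar, no strain or genotype is given in the sources used here, and nothing says that the replicates were separate cultures. The p-values therefore measure the spread between these samples, which may be technical.

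Propionate arises when worms break down branched-chain amino acids and odd-chain fatty acids, and it is toxic when it builds up. The canonical route carries it through propionyl-CoA and methylmalonyl-CoA to succinyl-CoA, and its last enzyme needs vitamin B12. When vitamin B12 is scarce, worms turn on the shunt, which oxidises propionyl-CoA to acetyl-CoA without this vitamin and is under the control of the nuclear hormone receptors NHR-10 and NHR-68. The promoter of acdh-1 is widely used as a reporter of the vitamin B12 state.

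Library totals ran from 18501261 to 31247605 counts, and the 9 genes together took 0.423% to 0.510% of them. The lowest count of any of the 9 genes in any library was that of mce-1, whose level never fell below 39.8 CPM (read counts scaled to a common library size, with TMM factors), so that detection was not a limit. On the first principal component of all tested genes, nicotinic acid replicate 1 lay at -24.1, with its group's other libraries at -3.2 and -0.9. MNA replicate 3 lay at -4.5 on the second component, with the other MNA libraries at -22.8 and -25. Where the call of one of the 9 genes changed without either library, its value without it is given.

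Levels were first compared between the genes, as CPM per kilobase of exon. In controls the shunt genes stood above the canonical ones. acdh-1, the acyl-CoA dehydrogenase that opens the shunt, averaged 792 ± 32.4, and alh-8, the aldehyde dehydrogenase that closes it, 696 ± 25.9 CPM per kilobase (SD, n = 3). They were followed by ech-6 at 531 ± 38.3, hphd-1 at 384 ± 12.7 and hach-1 at 239 ± 12.8 CPM per kilobase (SD, n = 3). Of the canonical genes pccb-1 averaged 166.5 ± 6.93, pcca-1 97.5 ± 6.0, mmcm-1 77.2 ± 3.06 and mce-1 53.8 ± 2.88 CPM per kilobase in controls (SD, n = 3).

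This order of levels was the same in 8 of the 9 libraries. In MNA replicate 2, alh-8 stood above acdh-1. Within the MNA group the libraries of acdh-1 (629.5 to 712.3) and alh-8 (613.5 to 662.0 CPM per kilobase) overlapped, so this pair of neighbours was not separated beyond its spread there. All other neighbours in the order were apart within each group, although in the nicotinic acid group the highest ech-6 library (635.9) came close to the lowest alh-8 library (641.0 CPM per kilobase).

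**Figure D1:**
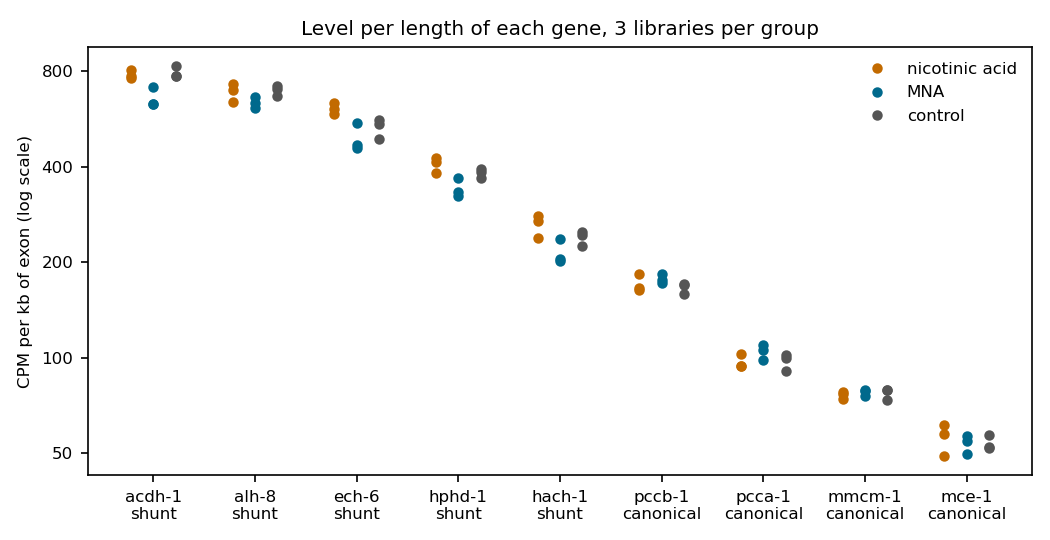
Level of each propionate gene in CPM per kilobase of exon on a log axis, with 1 point per library and 3 libraries per group. All 5 shunt genes lie above all 4 canonical genes in every library, and the order of neighbours changes for acdh-1 and alh-8 in MNA replicate 2.

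These lengths are unions of exons in Ensembl's WBcel235 annotation, because the lengths behind the deposited RPKM values do not match it. The deposited RPKM of acdh-1 implies a length of 8686 bases, against 1678 annotated exon bases, and that of pccb-1 implies 72 bases, against 1862. By the deposited RPKM pccb-1 would be the most abundant of the 9 genes, so RPKM was not used to compare levels between genes. In the annotation alh-8 shares 34 exon bases with F13D12.8 and pccb-1 shares 43 with wrt-2, each on the opposite strand, and the strand setting of the counting is not given in the sources used here. The other 7 genes share no exon bases with another gene.

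Worms given MNA were set against the water controls to find which propionate genes differed. acdh-1 fell under MNA, and it was the only one of the 9 genes past the threshold in the main test, edgeR's quasi-likelihood test with Benjamini-Hochberg adjustment over all tested genes at 0.05. The other 4 shunt genes had fitted values below 0 that did not pass. None of the canonical genes passed. Thus 1 of 9 genes was called, against 7.41% of all tested genes, of which 3.78% were lower and 3.63% higher.

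acdh-1 makes the dehydrogenase that turns propionyl-CoA into acrylyl-CoA. It had 1058.9, 1056.3 and 1195.2 CPM in the MNA libraries, against 1391.4, 1301.1 and 1293.6 CPM in controls. The groups did not overlap, and MNA replicate 3 was the MNA library closest to the controls. The mean was 1103 ± 79.5 CPM under MNA and 1329 ± 54.4 CPM in controls (SD, n = 3 each), a log2 fold change of -0.27 (SE 0.06, 95% interval -0.41 to -0.13, edgeR adjusted p = 0.0228). This is a change of -16.9%, with an interval from -24.6% to -8.53%.

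The call of acdh-1 was lost without MNA replicate 1 (-0.24, edgeR adjusted p = 0.122), without MNA replicate 2 (-0.24, edgeR adjusted p = 0.133) and without control replicate 1 (-0.23, edgeR adjusted p = 0.105). It was also lost in limma fits to the deposited RPKM (adjusted p = 0.0925 with a pseudocount of 1 and 0.0922 with 0.1), where the fitted values were -0.25 and -0.26. Its closest relative acdh-2, to which reads could be misassigned, had 0.422 to 0.618 CPM under MNA and 0.465 to 0.884 CPM in controls.

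**Figure D2:**
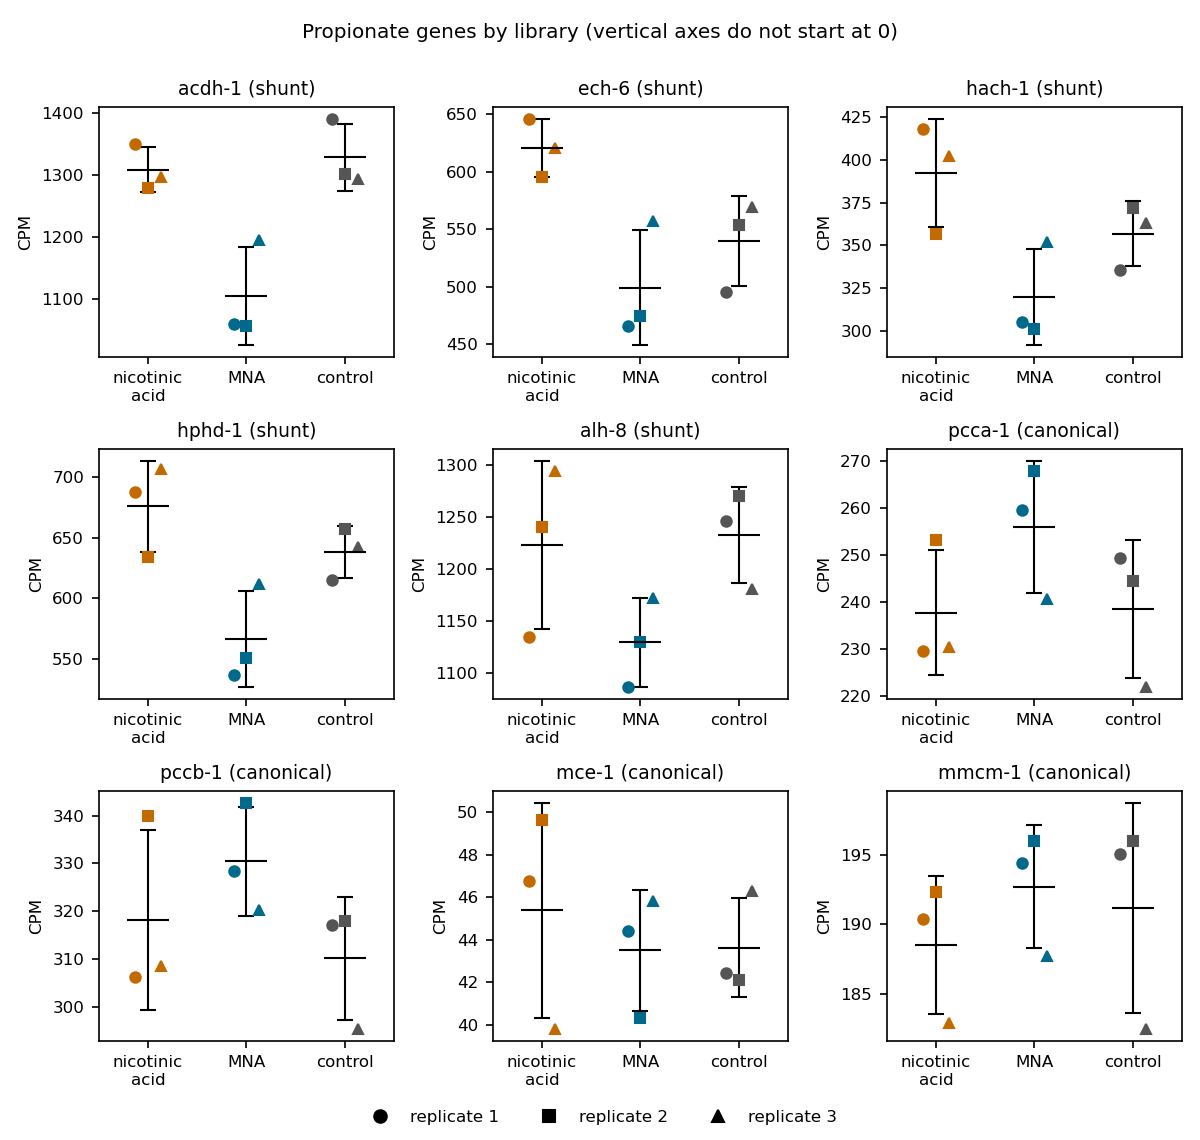
CPM of each propionate gene in every library, with 1 symbol per replicate number, the group mean as a horizontal line and the SD over 3 libraries as a vertical bar; the vertical axes do not start at 0. For acdh-1 the 3 MNA libraries (1056.3 to 1195.2 CPM) lie below the 3 controls (1293.6 to 1391.4 CPM), with MNA replicate 3 nearest to them.

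ech-6 encodes the enoyl-CoA hydratase that adds water to acrylyl-CoA. It had 466, 474 and 557 CPM under MNA, against 495, 553 and 570 CPM in controls, a log2 fold change of -0.11 (SE 0.07, edgeR adjusted p = 0.474). The groups overlapped, since MNA replicate 3 stood above control replicates 1 and 2.

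hach-1, the hydrolase that frees 3-hydroxypropionate from its CoA ester, had 305, 301 and 352 CPM under MNA. In controls it had 336, 372 and 363 CPM, and the log2 fold change was -0.16 (SE 0.07, edgeR adjusted p = 0.265). As for ech-6, MNA replicate 3 reached into the range of the controls.

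hphd-1, the dehydrogenase that oxidises 3-hydroxypropionate to malonic semialdehyde, had 537, 551 and 612 CPM under MNA, against 616, 657 and 642 CPM in controls. The groups did not overlap, but MNA replicate 3 lay just below control replicate 1. The log2 fold change was -0.17 (SE 0.06, 95% interval -0.31 to -0.03), and its edgeR adjusted p of 0.141 missed the threshold. It passed in the fit without MNA replicate 3, at -0.23 (edgeR adjusted p = 0.0387).

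alh-8, which converts malonic semialdehyde to acetyl-CoA, had 1086.5, 1130 and 1172.4 CPM under MNA. It had 1245.7, 1269.9 and 1181.1 CPM in controls, all above the MNA libraries. The log2 fold change was -0.13 (SE 0.06, edgeR adjusted p = 0.321).

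The libraries of MNA and control did not overlap, with MNA lower, for 3 of the 5 shunt genes (acdh-1, hphd-1 and alh-8), against 13.1% of all tested genes. Counting either direction, 4 of the 9 genes were separated, against 24.6% of all tested genes. The median log2 fold change of the 5 was -0.16, and that of all tested genes was 0.00. The summed level of the shunt genes was 3453, 3513 and 3888 CPM in the MNA libraries, against 4084, 4154 and 4050 CPM in controls.

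The canonical genes had log2 fold changes under MNA with a median of 0.05. pcca-1 and pccb-1 encode the subunits of propionyl-CoA carboxylase, which adds a carboxyl group to propionyl-CoA. pcca-1 had 259.7, 268 and 241 CPM under MNA, against 249, 244 and 222 CPM in controls, a log2 fold change of 0.10 (SE 0.06, edgeR adjusted p = 0.415). pccb-1 had 328.5, 343 and 320.2 CPM under MNA, against 317, 318 and 295 CPM in controls, and its fitted log2 ratio was 0.09 (95% interval -0.03 to 0.21, edgeR adjusted p = 0.423). For pccb-1 all MNA libraries were above all controls, and such separation upward was found for 11.5% of all tested genes.

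mce-1, the methylmalonyl-CoA epimerase gene, had 44.4, 40.3 and 45.8 CPM under MNA, against 42.4, 42.1 and 46.3 CPM in controls. mmcm-1, the gene of the vitamin B12-dependent methylmalonyl-CoA mutase, had 194, 196 and 188 CPM under MNA, against 195, 196 and 182 CPM in controls. The groups overlapped in both genes. The log2 fold change of mce-1 was 0.00 (95% interval -0.18 to 0.17) and that of mmcm-1 0.01 (95% interval -0.09 to 0.11).

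The same question was put to worms given the vitamin. Of the 9 genes 0 were called by edgeR, by DESeq2 and by limma-voom, and 1, ech-6, had an unadjusted p below 0.05 in edgeR, against 19.2% of all tested genes. Across all tested genes 5.34% were called in edgeR, 1.94% higher and 3.40% lower. The median log2 fold change was 0.08 over the shunt genes and 0.02 over the canonical genes.

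ech-6 had 646, 595 and 620 CPM under nicotinic acid, against 495, 553 and 570 CPM in controls. Each nicotinic acid library was above each control, as for 10.7% of all tested genes, and ech-6 was the only one of the 9 whose groups did not overlap in either direction, against 22.6% of all tested genes. The log2 fold change was 0.20 (SE 0.07, 95% interval 0.04 to 0.36, edgeR adjusted p = 0.153).

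hach-1 had 418, 357 and 402 CPM under nicotinic acid, against 336, 372 and 363 CPM in controls, a log2 fold change of 0.14 (SE 0.07, edgeR adjusted p = 0.349). Nicotinic acid replicate 2 stood below 2 of the controls, so the groups overlapped. hphd-1 had 687, 634 and 706 CPM under nicotinic acid, against 616, 657 and 642 CPM in controls, and its fitted log2 ratio was 0.08 (95% interval -0.05 to 0.22, edgeR adjusted p = 0.543); replicate 2 was again the nicotinic acid library inside the control range.

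The genes at either end of the shunt had fitted values near 0. acdh-1 had 1350.5, 1279.8 and 1296.1 CPM under nicotinic acid, and its log2 fold change against control was -0.02 (95% interval -0.16 to 0.12). alh-8 had 1135.2, 1240.5 and 1293.6 CPM under nicotinic acid, at -0.01 (95% interval -0.15 to 0.13), and nicotinic acid replicate 1 was the lowest of these and all control libraries. For acdh-1 the interval leaves room for a change from -10.5% to 8.48%.

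In the canonical route the nicotinic acid libraries overlapped the controls for each of the 4 genes. pcca-1 had 229.7, 253 and 230.5 CPM under nicotinic acid and a log2 fold change of -0.01 (95% interval -0.14 to 0.13). pccb-1 had 306, 340 and 309 CPM, at 0.04 (95% interval -0.08 to 0.16). mce-1 had 46.7, 49.6 and 39.8 CPM, at 0.05 (95% interval -0.12 to 0.23), the widest interval of the 9 genes. mmcm-1 had 190.4, 192 and 183 CPM, at -0.02 (95% interval -0.12 to 0.08), the narrowest.

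**Figure D3:**
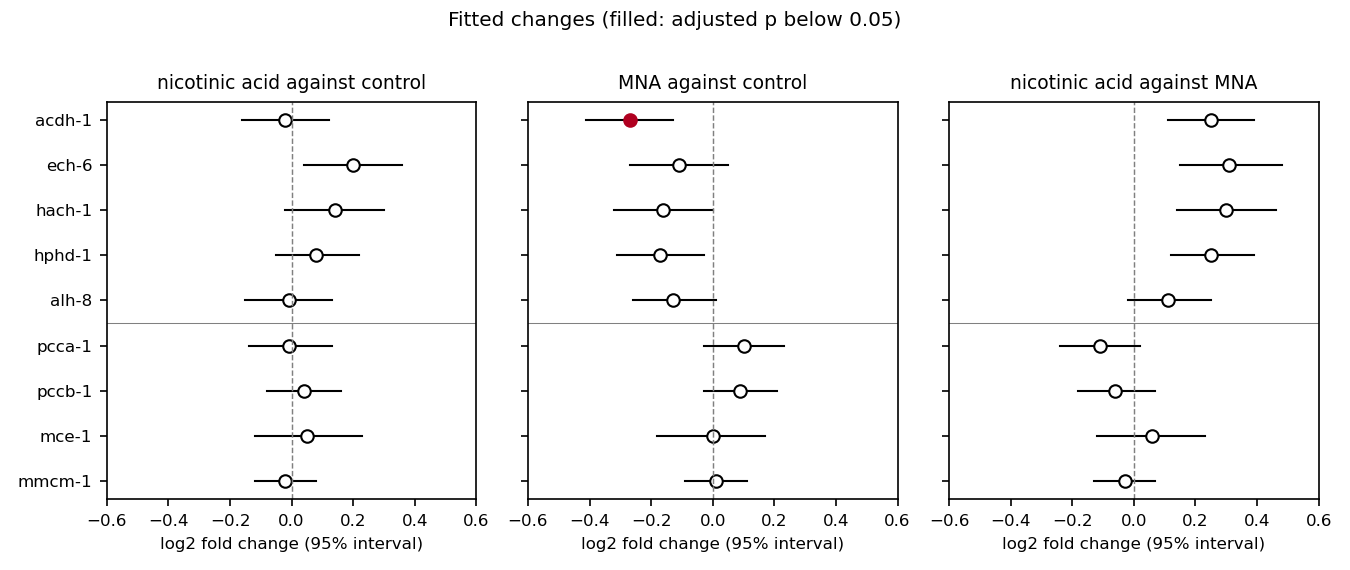
Fitted log2 fold change of each propionate gene (points) with its 95% interval (lines) in 3 comparisons; the point filled in red has an adjusted p below 0.05, and the grey line parts shunt from canonical genes. Only acdh-1 under MNA passed (-0.27), and the intervals of acdh-1, ech-6, hach-1 and hphd-1 lie above 0 for nicotinic acid against MNA.

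Nicotinic acid and MNA were given at doses that differ under either reading of the nicotinic acid label, so the contrast between them compares these groups and not the compounds at a matched dose. They share the same 3 controls in the comparisons above, and the direct contrast does not use those controls other than for the estimate of spread. In the direct contrast 0 of the 9 genes passed in edgeR or limma-voom and 4 passed in DESeq2. Of all tested genes 1.42% were called in edgeR, 0.315% higher and 1.10% lower. DESeq2 called more of all genes than edgeR in each direction, and its counts are given below with the dependence on processing. An unadjusted p below 0.05 was found for 4 of the 9 genes and for 13.6% of all tested genes.

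These 4 were the first 4 enzymes of the shunt. Every nicotinic acid library was above every MNA library for acdh-1, ech-6, hach-1 and hphd-1, a separation found for 9.32% of all tested genes. The reverse separation was found for 0 of the 9 genes and 9.78% of all tested genes, which makes 19.1% in either direction. ech-6 averaged 620.5 ± 25.4 CPM under nicotinic acid and 499 ± 50.2 CPM under MNA (SD, n = 3 each), a log2 fold change of 0.31 (SE 0.07, 95% interval 0.15 to 0.48, edgeR adjusted p = 0.0608). hach-1 averaged 392 ± 31.8 CPM under nicotinic acid and 319.6 ± 28.1 CPM under MNA (SD, n = 3 each), at 0.30 (SE 0.07, edgeR adjusted p = 0.0726).

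hphd-1 averaged 676 ± 37.5 CPM under nicotinic acid and 567 ± 39.9 CPM under MNA (SD, n = 3 each), at 0.25 (SE 0.06, edgeR adjusted p = 0.0715). acdh-1 averaged 1309 ± 37 CPM under nicotinic acid and 1103 ± 79.5 CPM under MNA (SD, n = 3 each), at 0.25 (SE 0.06, edgeR adjusted p = 0.0863). The fifth enzyme gene, alh-8, was at 0.11 (95% interval -0.02 to 0.25), with nicotinic acid replicate 1 inside the MNA range.

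MNA replicate 3 had the highest MNA value of all 5 shunt genes. Without it the first 4 shunt genes passed between the compounds, with edgeR adjusted p-values of 0.0149 for acdh-1, 0.00455 for ech-6, 0.0109 for hach-1 and 0.0131 for hphd-1. Leaving out the MNA library nearest to nicotinic acid for these genes favours such calls, so they were not counted as results. The edgeR count of all tested genes called higher also moved, from 44 in the main fit to 1 to 158 without 1 library. ech-6 also passed without control replicate 1 (edgeR adjusted p = 0.0453), and hach-1 without nicotinic acid replicate 2 (edgeR adjusted p = 0.0489). The canonical genes did not pass between the compounds in any fit, with main log2 fold changes of -0.11 for pcca-1, -0.06 for pccb-1, 0.06 for mce-1 and -0.03 for mmcm-1.

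The summed level of the 5 shunt genes over that of the 4 canonical genes, per kilobase, put these differences into a single figure per library, given as a description. It was 7.07, 6.28 and 7.33 in the nicotinic acid libraries, 5.36, 5.37 and 6.27 in the MNA libraries, and 6.48, 6.68 and 6.92 in controls. All MNA libraries were below all controls, with MNA replicate 3 the closest, and nicotinic acid replicate 2 was the lowest of its group.

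Covariation from library to library was described for each pair of the 9 genes, without a background of other gene pairs. Over the 9 libraries, which share the scaling and the agar batch, the median Pearson r of log2 CPM was 0.72 over the 10 pairs of shunt genes, from 0.43 (ech-6 with alh-8) to 0.97 (hach-1 with hphd-1). Within the canonical route the median over 6 pairs was 0.33, and between the routes it was -0.53 over 20 pairs. pcca-1 and pccb-1, whose proteins form a single enzyme, had an r of 0.93.

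To set aside the differences between groups, r was also taken over the deviations of the 9 libraries from their group means. ech-6, hach-1 and hphd-1 stayed close to each other, with r of 0.90 (ech-6 with hach-1), 0.85 (ech-6 with hphd-1) and 0.93 (hach-1 with hphd-1). acdh-1 was at 0.45 to 0.53 with these genes and at 0.16 with alh-8, and alh-8 was at 0.02 to 0.34 with ech-6, hach-1 and hphd-1. pcca-1 with pccb-1 gave 0.95 and pcca-1 with mmcm-1 0.87, while mce-1 was at -0.15 to -0.01 with the rest of its route. hach-1 and pcca-1, from different routes, were at -0.81.

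**Figure D4:**
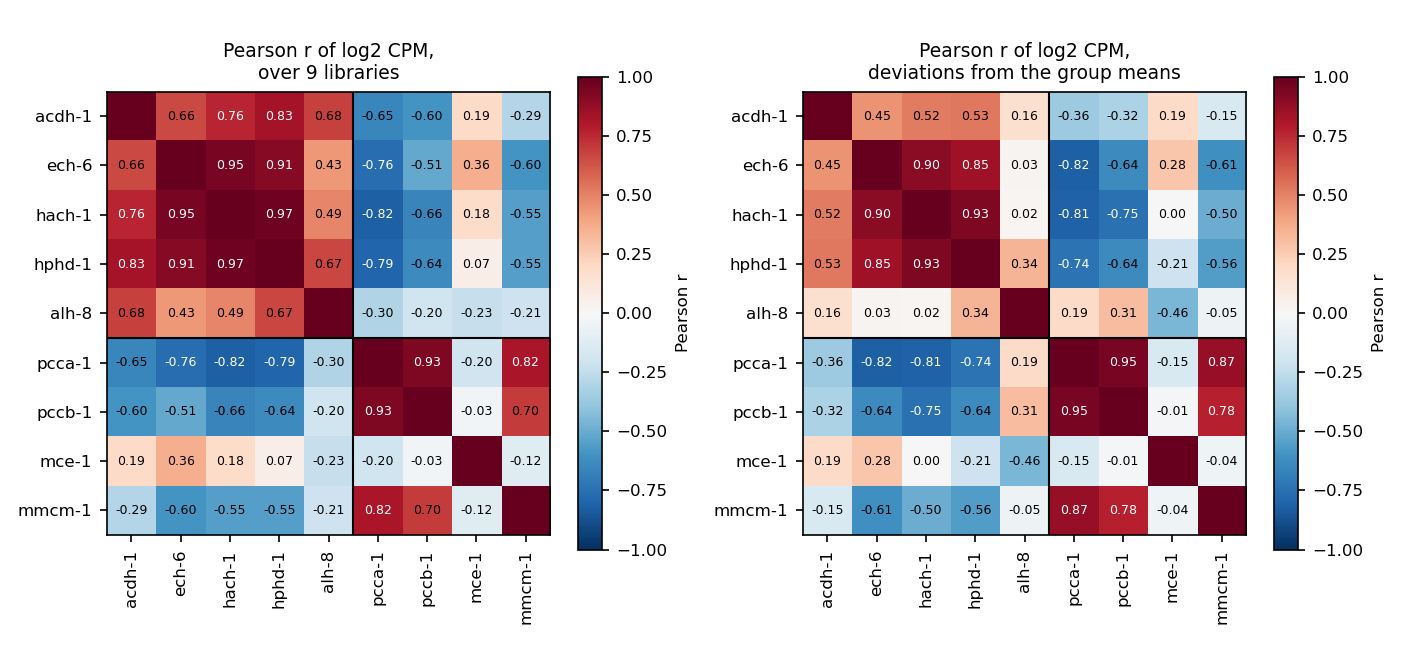
Pearson r of log2 CPM between each pair of propionate genes, over the 9 libraries (left) and over the deviations from the group means (right); red is positive, blue negative, and black lines part the shunt genes from the canonical genes. ech-6, hach-1 and hphd-1 form a block of high r in each panel, as do pcca-1, pccb-1 and mmcm-1.

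Genes outside the 9 with the most similar profiles were named by their r over the 9 libraries, among 7377 genes with a mean of at least 10 CPM. For acdh-1 these were Y57G11C.36 (0.979), F59B1.8 (0.968), the stearoyl-CoA desaturase gene fat-6 (0.965), F45F2.9 (0.960) and F42G4.5 (0.952). For hphd-1 they were the folate transporter gene folt-2 (0.967), K07H8.9 (0.965), dhgd-1 (0.961), the saposin-like gene spp-17 (0.956) and F54F7.2 (0.952). dhgd-1, the D-2-hydroxyglutarate dehydrogenase gene, had 214, 200 and 205 CPM under nicotinic acid, 156, 156 and 179 CPM under MNA, and 181, 200 and 186 CPM in controls. These genes were chosen for following acdh-1 or hphd-1 over these libraries, so their group differences follow from the choice and were not counted as results.

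The regulators of the shunt were then examined. Of 5 regulator genes 0 passed in edgeR in any comparison, with unadjusted p-values below 0.05 for 0 genes in nicotinic acid worms and 2 in MNA worms, each set against water, and for 2 genes between the compounds. The same held for 19.2%, 18.9% and 13.6% of all tested genes in these comparisons. Under MNA all 5 had fitted values below 0. The lowest was that of sbp-1, at -0.34 (SE 0.11, edgeR adjusted p = 0.108), and mdt-15 was at -0.08. nhr-68, which encodes a nuclear receptor that activates the shunt, had 34.7, 33.9 and 39.3 CPM under MNA, against 43.7, 40.0 and 41.3 CPM in controls. The groups did not overlap, with MNA lower, as for 2 of the 5 regulators (nhr-68 and sbp-1) and 13.1% of all tested genes. The log2 fold change of nhr-68 was -0.21 (SE 0.07, edgeR adjusted p = 0.082). It passed without MNA replicate 3 (-0.28, edgeR adjusted p = 0.023). nhr-10, its partner in activating the shunt, was at -0.01 (95% interval -0.17 to 0.16) for MNA against control. nhr-114, a receptor of a separate response to low vitamin B12, was at 0.34 (SE 0.10, edgeR adjusted p = 0.176) for nicotinic acid against MNA. It passed without control replicate 1 (edgeR adjusted p = 0.0487). It also passed in 3 of the 10 other alternative fits with edgeR, DESeq2 or limma (lowest adjusted p = 0.0122). Among these were edgeR on the 6 libraries compared (adjusted p = 0.0301) and DESeq2 (adjusted p = 0.0374).

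Vitamin B12 handling was represented by 5 genes. An unadjusted p below 0.05 in edgeR was found for 0 under nicotinic acid, 1 under MNA and 1 between the compounds. The shares of all tested genes were 19.2%, 18.9% and 13.6%. After adjustment 0 passed against control in edgeR, where 5.34% of all tested genes did under nicotinic acid and 7.41% under MNA. Between the compounds 1 passed, against 1.42% of all tested genes. This was pmp-5, a transporter gene linked to vitamin B12, with 168.8, 153.6 and 148.8 CPM under nicotinic acid and 113.8, 121.0 and 135.6 CPM under MNA. The log2 fold change was 0.35 (SE 0.06, edgeR adjusted p = 0.0175), and the control libraries, at 138.6, 145.3 and 144.5 CPM, lay between the compounds. The call was lost without nicotinic acid replicate 1 or 2 or MNA replicate 1 or 2 (highest edgeR adjusted p = 0.129). It was also lost with library totals alone and in both RPKM fits (highest adjusted p from edgeR or limma = 0.135). Against control, pmp-5 was at -0.21 under MNA (edgeR adjusted p = 0.0744), and it passed without MNA replicate 3 (-0.28, edgeR adjusted p = 0.0128), without nicotinic acid replicate 1 (edgeR adjusted p = 0.0436) and without a filter on low counts (edgeR adjusted p = 0.0242). The cofactor genes mmaa-1, mmab-1 and cblc-1 were at -0.08, 0.06 and 0.01 on the log2 scale for MNA against control. Of 7 methionine and folate enzyme genes linked to the vitamin 0 passed in edgeR in any comparison, with 1 at an unadjusted p below 0.05 under nicotinic acid, 0 under MNA and 1 between the compounds (19.2%, 18.9% and 13.6% of all tested genes). metr-1, the vitamin B12-dependent methionine synthase gene, was at -0.13 (95% interval -0.28 to 0.03) under nicotinic acid and -0.15 (95% interval -0.31 to 0.00) under MNA, each against control. Both share the metr-1 controls, at 486.5, 414.9 and 388.7 CPM. Without 1 library the values were -0.19 to -0.02 under nicotinic acid and -0.22 to -0.05 under MNA.

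Branched-chain amino acid breakdown, part of which feeds propionyl-CoA, had 1 of 12 genes lower under MNA, against 3.78% of all tested genes. It had 0 called under nicotinic acid. Under nicotinic acid 11 of the 12 had fitted values above 0, 5 were separated upward from the controls (10.7% of all tested genes were) and 5 had an unadjusted p below 0.05 (19.2%). Under MNA 10 of the 12 were above 0 and 2 had an unadjusted p below 0.05 (18.9%), and between the compounds 5 did (13.6%). bcat-1, the branched-chain aminotransferase gene, had 217, 218 and 249 CPM under MNA and 263, 263 and 268 CPM in controls, a log2 fold change of -0.22 (SE 0.06, edgeR adjusted p = 0.0426). That call held in 2 of the 9 fits that left out 1 library, those without nicotinic acid replicate 1 or MNA replicate 3 (highest edgeR adjusted p = 0.214 without any of the other 7). It was also lost with library totals alone, a filter at a mean of 1 CPM, the 6 libraries compared and both RPKM fits, at adjusted p-values from edgeR or limma of 0.0539 to 0.174. Between the compounds bcat-1 passed without MNA replicate 3 (0.28, edgeR adjusted p = 0.0109). Between the compounds acdh-9, an acyl-CoA dehydrogenase gene, was higher under nicotinic acid, with 97.8, 99.5 and 99.5 CPM there and 76.6, 72.4 and 88.6 CPM under MNA (0.32, SE 0.06, edgeR adjusted p = 0.0243). The call of acdh-9 was lost without any 1 nicotinic acid library, MNA replicate 1 or MNA replicate 2 (highest edgeR adjusted p = 0.165). It was also lost with library totals alone and in both RPKM fits (highest adjusted p from edgeR or limma = 0.148). Without MNA replicate 3, acdh-9 also passed against control under nicotinic acid (0.18, edgeR adjusted p = 0.037) and under MNA (-0.23, edgeR adjusted p = 0.0147). The succinyl-CoA and succinate steps that follow the canonical route had 0 of 6 genes past the threshold in any comparison in edgeR. An unadjusted p below 0.05 was found for 1 under nicotinic acid, 1 under MNA and 0 between the compounds. The shares of all tested genes were 19.2%, 18.9% and 13.6%. acdh-3, another acyl-CoA dehydrogenase gene, did not pass in any of the 3 comparisons, with log2 fold changes of 0.11, 0.10 and 0.01 for nicotinic acid against control, MNA against control and nicotinic acid against MNA.

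**Figure D5:**
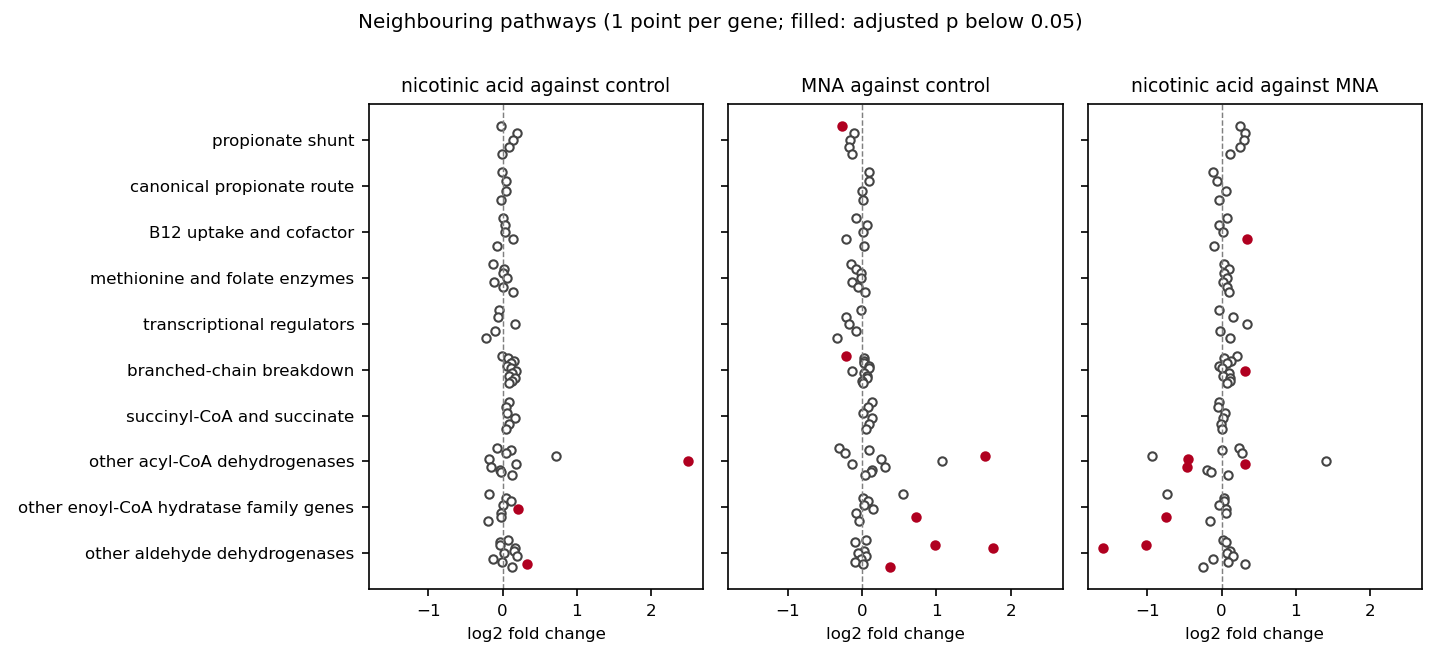
Log2 fold change of every tested gene (1 point each, filled in red where the adjusted p was below 0.05) in the 2 propionate routes and 8 neighbouring gene lists, for 3 comparisons. Between the compounds pmp-5 (0.35) and acdh-9 (0.32) are the red points to the right of 0.

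Markers of cell types were measured in the same libraries, since fewer cells of a type and less RNA per cell cannot be told apart in whole worms. The 10 intestine markers summed to 16168 to 20939 CPM under nicotinic acid, 18256 to 18823 CPM under MNA and 19721 to 21942 CPM in controls. Of these 10, 1 was higher (pept-1) and 1 lower (ges-1) under MNA, against 3.63% and 3.78% of all tested genes. Their median log2 fold change under MNA was -0.03. The 7 epidermis markers summed to 1937 to 2075 CPM under nicotinic acid, 1683 to 1839 CPM under MNA and 1889 to 2314 CPM in controls, with 1 higher (rol-6) and 0 lower under MNA and a median of -0.22. Both sums were thus lower in all MNA libraries than in all controls, as was acdh-1, and their part in its fall was not tested. A single gene made up most of each difference: vit-2 averaged 14905 CPM under MNA and 17101 CPM in controls, and col-119 averaged 1193 CPM under MNA and 1441 CPM in controls, neither past the threshold (edgeR adjusted p = 0.324 for vit-2 and 0.107 for col-119). Sperm markers summed to 23.7 to 29.0 CPM under nicotinic acid and 20.1 to 21.0 CPM in controls. Under nicotinic acid 2 of 4 tested sperm markers (spe-11 and spe-15) and 1 of 6 body wall muscle markers (mup-2) were higher in edgeR. So were 1 of 10 intestine markers (pept-1) and 1 of 7 epidermis markers (rol-6), against 1.94% of all tested genes. Of the 8 sperm markers 3 had more than 3 counts in every library. spe-11 averaged 0.94 CPM under nicotinic acid and 0.094 CPM in controls, where 3 counts were 0.1125 to 0.1337 CPM. Its controls were thus at the limit of detection. The germ line, embryo and neuron lists had 0 called in any comparison. The embryo marker elt-5 was not matched to an entry, and no matched marker was at 0 in every library.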

How the data were processed

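RNA of 9 libraries (TruSeq kit) was sequenced, and the authors used CASAVA, TopHat 1.4.1 and HTSeq, per the submitters' processing notes. The sources used here do not give the genome build, annotation or counting settings. The authors deposited raw read counts per gene, which were used for all main results, and RPKM values, which served only in an alternative fit.

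Genes with too few reads were removed with filterByExpr (minimum count 10), which left 13985 genes, and counts were scaled by TMM. One edgeR (4.0.16) quasi-likelihood model with a term for group was fitted to all 9 libraries in R 4.3.3, with Benjamini-Hochberg adjustment inside each comparison and a threshold of 0.05. Alternatives were DESeq2 1.42.0, limma 3.58.1 (voom, and log2 of RPKM plus 1 or 0.1), other filters and scalings, the replicate block and leaving out each library. Levels between genes used exon unions of the WBcel235 annotation.

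The 9 genes and all lists were chosen with earlier results of these data known. Named genes were the 9, up to 4 called genes of each list with the smallest p in each comparison, 11 fixed genes (acdh-2, acdh-3, nhr-10, nhr-68, nhr-114, mmaa-1, mmab-1, cblc-1, pmp-5, metr-1 and bcat-1), and the 5 genes most like acdh-1 and hphd-1. Library totals limit counting precision only slightly at these levels.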

Additional observations from a re-analysis of the deposited data

How the results depend on the processing

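Of 513 values of the 9 propionate genes under 19 alternatives, 23 changed side of the threshold, and 0 reversed while called. For nicotinic acid against control, the count of all genes called higher (272) was 475 without a filter, 144 on the 6 libraries compared, 144 and 176 on RPKM with pseudocounts of 1 and 0.1, and 71 to 263 without 1 library; the count called lower (475) was 243, 178, 174 and 151 to 544 in the last 4 of these. For MNA against control the count of the 9 genes called lower (1) was 0 on RPKM with either pseudocount and 0 to 2 without 1 library. All genes called higher (508) numbered 229 to 557 without 1 library, and those called lower (528) numbered 258 and 236 on RPKM and 138 to 628 without 1 library. For nicotinic acid against MNA the count of the 9 genes called higher (0) was 4 without a filter, 4 in DESeq2, 1 on the 6 libraries and 0 to 4 without 1 library. All genes called higher (44) numbered 150 without a filter, 135 in DESeq2, 11 and 10 on RPKM and 1 to 158 without 1 library, and those called lower (154) numbered 281.0, 259, 97, 91 and 75 to 255. The median r was 0.58 to 0.94 within the shunt and 0.24 to 0.46 within the canonical route without 1 library. The cause was not tested.

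Replicate numbers did not pair the libraries: same-numbered deviations correlated at -0.2 to 0.16, and 5 of 9 libraries correlated best with their own number. With the replicate block, 2 of the 9 genes (ech-6 and hphd-1) and 92 of all genes were called higher for nicotinic acid against MNA.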

Other observations

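Relatives of the shunt enzymes, on lists of genes from the same families, included genes with larger differences under MNA than acdh-1. alh-5, an aldehyde dehydrogenase gene, averaged 31.3 ± 7.91 CPM under MNA and 9.26 ± 0.432 CPM in controls (SD, n = 3 each), a log2 fold change of 1.76 (edgeR adjusted p = 0.000581). alh-4 averaged 213 ± 48.0 CPM under MNA and 108 ± 3.48 CPM in controls (SD, n = 3 each), at 0.98 (edgeR adjusted p = 0.00903). ech-8, of the enoyl-CoA hydratase family, averaged 20.5 ± 3.84 CPM under MNA and 12.3 ± 0.625 CPM in controls (SD, n = 3 each), at 0.73 (edgeR adjusted p = 0.00456). These 3 calls held without any 1 library. Of 11 tested aldehyde dehydrogenase genes outside the shunt 3 were higher and 0 lower under MNA, and of 8 enoyl-CoA hydratase family genes 1 was higher and 0 lower, where 3.63% of all tested genes were higher and 3.78% lower. alh-13 was the other aldehyde dehydrogenase gene called under MNA (0.38, edgeR adjusted p = 0.0127), and that call was lost without MNA replicate 1, MNA replicate 2 or control replicate 3 (highest edgeR adjusted p = 0.0773). Among acyl-CoA dehydrogenases acdh-6 was higher under MNA at low levels, 2.38 ± 0.615 CPM under MNA and 0.760 ± 0.206 CPM in controls (SD, n = 3 each; 1.65, edgeR adjusted p = 0.00572).

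Between the compounds alh-5 (-1.6, edgeR adjusted p = 0.00153), alh-4 (-1.02, edgeR adjusted p = 0.0206) and ech-8 (-0.75, edgeR adjusted p = 0.00907) were lower under nicotinic acid, as were 1.1% of all tested genes. The call of alh-5 held without any 1 library. That of alh-4 was lost in 5 of the 9 such fits (highest edgeR adjusted p = 0.104), and that of ech-8 in 3 (0.0778). Also lower were acdh-10 (-0.47, edgeR adjusted p = 0.04) and acdh-7 (-0.45, edgeR adjusted p = 0.0416). Each of these 2 calls was lost in 7 of the 9 fits without 1 library (highest edgeR adjusted p = 0.204 for each). Under nicotinic acid against control, alh-12 was at 0.33 (edgeR adjusted p = 0.026, highest 0.091 without 1 library), ech-5 at 0.21 (edgeR adjusted p = 0.0328, highest 0.109) and acdh-8, which averaged 1.08 ± 0.635 CPM under nicotinic acid and 0.194 ± 0.162 CPM in controls (SD, n = 3 each), at 2.49 (edgeR adjusted p = 0.023, highest 0.0909). The value for acdh-8 was 1.85 to 3.38 without 1 library (1.85 without nicotinic acid replicate 1 and 3.38 without control replicate 2) and 0.70 in limma on log2(RPKM + 1). The controls of acdh-8 had 0.0899, 0.380 and 0.110 CPM, where 3 counts were 0.1125 to 0.1337 CPM. Its ratio thus lies near the limit of detection. Without MNA replicate 3, acdh-10 (0.41, edgeR adjusted p = 0.00194) and acdh-7 (0.36, edgeR adjusted p = 0.00851) passed for MNA against control, and alh-12 (0.38, edgeR adjusted p = 0.0186) and alh-13 (-0.35, edgeR adjusted p = 0.00898) passed for nicotinic acid against MNA.

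Over 15269 genes with an annotated length, the length implied by the deposited RPKM had a Spearman correlation of 0.129 with that length, and 18.4% of genes lay within 20% of it.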
